A study of Mus musculus with 11 samples.

Results

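The genes of the proteasome and immunoproteasome were described here in macrophages sorted from mouse mammary tumours. Members were the rows of the expression table whose symbol begins with Psma, Psmb, Psmc, Psmd, Psme, Psmf or Psmg followed by a number, which gave 46 of 17475 genes. Psmb8, Psmb9, Psmb10, Psme1 and Psme2 form the immunoproteasome group of 5 genes. The other 41 are the remainder, which holds assembly chaperones, other activators and an inhibitor besides the constitutive subunits. The rule uses symbols and no measured value, but it was chosen with earlier results of these data known.

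The proteasome is the barrel-shaped protease of the cytosol and nucleus that degrades proteins tagged with ubiquitin. Its core particle stacks rings of alpha subunits (Psma genes), which gate the channel, and beta subunits (Psmb genes), of which Psmb5, Psmb6 and Psmb7 carry the cutting sites. The regulatory particle (Psmc and Psmd genes) binds ubiquitin, removes it, and uses ATPases to unfold the substrate. Interferon-gamma is known to induce the immunoproteasome, in which Psmb8 replaces Psmb5, Psmb9 replaces Psmb6 and Psmb10 replaces Psmb7, and to induce the cap of Psme1 and Psme2 (PA28 alpha and beta). Macrophages and other immune cells carry it also without stimulation, and its peptides feed antigen presentation on MHC class I.

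All mice were female, carried the PyMT oncogene that drives mammary tumours, and were backcrossed to B6. At 7 weeks of age they were irradiated and given 3000000 bone marrow cells of wild-type B6 mice, and 2 weeks later they were switched to a low protein diet for 6 weeks. MYC mice also carried S100a8-cre and Rosa26-LSL-MYC, a MYC transgene that Cre turns on where the S100a8 promoter, a myeloid promoter, is active. The labels give the other mice as control PyMT. The transplanted marrow was wild-type in both genotypes, and how many macrophages of the host remained was not measured. Tumour-associated macrophages (TAMs) were the sorted cells with F4/80 and Vcam on their surface. Mammary tissue macrophages (MTMs) had F4/80 and FOLR2 but no Vcam, and both lacked SiglecF, Ly6G, B220 and Ly6C. There were 3 libraries of control TAMs and 3 of control MTMs (mice 1, 3 and 5), 3 of MYC TAMs (mice 2, 4 and 6) and 2 of MYC MTMs (mice 2 and 4). Every library came from the same diet, so no effect of diet can be read from them.

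Each library held about 32300000 to 42800000 reads in genes, as estimated from the spacing of low values, and the least covered member in any library, Psmg3, had about 92 reads. The MYC TAM library of mouse 4 stood apart: 537 genes had no read there, against 1856 to 3425 in the other libraries. Without it, 5 proteasome genes in place of 6 passed between the TAM groups, 0 in place of 2 between the cell types of MYC mice, and 1 as before in the interaction described below. The sort genes fitted their labels only in part. Emr1, the gene of F4/80, on which both populations were gated, was at 7.50 to 8.37 in MYC TAMs and 9.40 to 9.96 in the other 3 groups, while the macrophage gene Cd68 was at 10.18 to 10.41 in MYC TAMs and 8.17 to 9.50 in the others. Folr2 was at 7.67 to 8.45 in the MTM libraries and 0.96 to 3.62 in the TAM libraries, but Vcam1 was at 7.64 to 8.60 in control TAMs and only 0.96 to 2.82 in MYC TAMs, below control MTMs (5.25 to 6.86). Csf1r, the receptor of the macrophage growth factor, was at 9.91 to 10.74 in the other 3 groups and 7.59 to 8.09 in MYC TAMs. The row named Myc was at 2.66 to 3.18 in control TAMs and 1.78 to 2.16 in MYC TAMs, and whether reads of a transgene fall in this row is not given in the sources used here.

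Markers of other cells and of division also moved with the groups, and their part in the results below was not tested. Between MYC and control TAMs, 8 of 16 epithelial genes, 10 of 12 T and NK cell genes and 17 of 18 proliferation genes were lower by limma at an adjusted p under 0.05, where 12% of all genes tested were lower and 3.89% higher. The epithelial differences did not all share a sign, with 13 below 0 and 3 above, up to 1.16. The summed epithelial level, on the scale before the logarithm, was 849 to 1924 in control TAMs, 520 to 1299 in control MTMs, 47.5 to 459 in MYC TAMs and 402 to 472 in MYC MTMs. For T and NK cell genes the sum was 68.7 to 160.5, 18.6 to 47.4, 3.12 to 7.37 and 2.36 to 14.7 in the same order, and Gzma had no read in the 3 MYC TAM libraries. Proliferation genes summed to 367 to 551, 423 to 607, 139 to 220 and 431 to 440. Of the smaller lists, 3 of 6 neutrophil genes were higher in MYC TAMs than in control TAMs, and 3 of 9 dendritic cell, 2 of 7 B cell and 1 of 7 endothelial genes were lower. Cxcr2 had about 5 to 15 reads in MYC TAMs and 0 in control TAMs, and Ccr7 0 and 5 to 14. The calls of Cxcr2 and Ccr7 weakened under 12 of 19 alternatives each, S100a8 under 12 of 20, Cd79b under 13 of 20 and Pecam1 under 13 of 19. Those of Mmp8, Batf3 and Dpp4 held under all 20. No fibroblast gene of 7 passed, with 2 at an unadjusted p under 0.05.

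Proteasome genes were well expressed in every group. Levels are on the deposited log2 scale, which behaves as the log2 of a depth-scaled and length-scaled read number plus a pseudocount. Comparisons between genes rest on this length scaling, which was inferred from the values. The mean level over the 11 libraries ran from 8.86 for Psma2, an alpha ring subunit, to 1.67 for Psma8, the alpha subunit known from testis. Psma2, Psmb1 and Psmd8 were the 3 highest. Of the immunoproteasome genes, Psmb10 ranked 7, Psme2 13, Psmb8 19, Psme1 27 and Psmb9 29 among the 46. The lowest ranks below Psmd9 were held by Psmf1, Psme4, Psma3, Psmg3 and Psma8. Psma3 shares 32.5% of its transcript at 95% identity or more with 8 other genes, mostly outside the table, so its level is uncertain.

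The comparison of MYC with control TAMs asked how macrophages of the tumour parenchyma differ when the mouse carries the MYC transgene. In it 6 of 46 members passed, which is 13% against 15.9% of all genes tested, so the share is near that of the whole table. Psmd8, Psmb6 and Psmd9 were higher in MYC TAMs (3 members, 6.52%, against 3.89% of all genes called higher), and Psmd3, Psmc5 and Psmd11 were lower (3 members, 6.52%, against 12% called lower). In bulk samples such as these, fewer cells of a type and less RNA per cell cannot be told apart. At an unadjusted p under 0.05 there were 12 members, 26.1% against 28% of all genes.

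Psmd8, a subunit of the lid of the regulatory particle, showed the largest difference of any member in this comparison. Its levels were 7.88, 7.78 and 8.04 in control TAMs and 10.17, 9.68 and 9.66 in MYC TAMs. They were 8.01, 8.22 and 8.08 in control MTMs, with 9.07 and 8.92 in MYC MTMs. Both MYC groups therefore lay above every control library, and MYC TAMs above MYC MTMs. The difference between MYC and control TAMs was 1.94 ± 0.17 (SE, n = 3 and 3), a 3.83-fold higher level (limma, adjusted p = 0.00012), and it stayed past the threshold under all 20 alternatives that give this comparison. Psmd8 (chr7:29174188-29180701, minus strand, GRCm38) shares only 7.0% of its transcript with another gene, a processed pseudogene.

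Psmb6 encodes the constitutive beta subunit with caspase-like activity. Psmb6 was at 7.58, 7.63 and 7.65 in control TAMs and 8.83, 8.71 and 8.18 in MYC TAMs. In the MTM libraries it was at 7.48, 7.80 and 7.68 (control) and 7.85 and 7.81 (MYC). Every MYC TAM library was above all the others, and the other 8 libraries lay within a narrow band. MYC TAMs exceeded control TAMs by 0.955 ± 0.178 (1.94-fold, limma adjusted p = 0.00638), again in all 20 alternatives. The gene lies at chr11:70525367-70527858 on the plus strand and has no near-identical copy.

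Psmd9, a chaperone that helps assemble the ATPase ring, was at 3.29, 3.40 and 3.10 in control TAMs and 4.45, 4.00 and 3.80 in MYC TAMs. In the MTM libraries Psmd9 was at 3.36, 3.59 and 3.29 (control) and 3.94 and 3.42 (MYC), so these groups overlapped. The TAM difference of 0.821 ± 0.210 (limma, adjusted p = 0.0264) was lost under 6 of 20 alternatives, including the omission of any control TAM library (adjusted p = 0.0557 to 0.0935) or of the MYC TAM library of mouse 2 or 4 (0.0794 and 0.0554). Psmd9 overlaps Hpd and other genes on the opposite strand, and whether the counting used strand is not given in the sources used here.

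Among the genes that were lower, Psmd3, another lid subunit, was at 4.75, 4.90 and 5.00 in control TAMs and 3.98, 4.00 and 3.69 in MYC TAMs. Psmd3 was at 3.88, 4.15 and 4.10 in control MTMs, with 4.20 and 4.18 in MYC MTMs, so the control TAM libraries were the only ones above 4.20. MYC TAMs were lower by 0.996 ± 0.141 than control TAMs (limma, adjusted p = 0.00154, lost under 1 of 20 alternatives). With the mean epithelial level as a covariate the difference was -0.757 (adjusted p = 0.0708). That level was 3.63, 2.54 and 1.57 in MYC TAMs and 3.655 to 5.03 in the other libraries. The groups do not overlap in it, so values fitted with this covariate, here and below, cannot separate it from the MYC TAM group.

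Psmc5, an ATPase of the base, was at 7.10, 6.94 and 7.23 in control TAMs and 6.05, 6.32 and 6.39 in MYC TAMs. Psmc5 stood at 6.93, 7.22 and 6.96 in control MTMs, with 6.86 and 6.72 in MYC MTMs. Only the MYC TAM libraries were under 6.5, and the TAM difference of -0.835 ± 0.147 (limma, adjusted p = 0.00481) held in all 20 alternatives. Psmd11, a lid subunit known to promote proteasome assembly, was at 6.25, 6.65 and 6.60 in control TAMs and 5.88, 5.98 and 5.78 in MYC TAMs. Psmd11 was at 6.69, 6.77 and 6.61 in control MTMs, with 6.63 and 6.36 in MYC MTMs. Its TAM difference of -0.619 ± 0.145 (limma, adjusted p = 0.0181) was lost under 5 of 20 alternatives, including without the control TAM library of mouse 3 (0.075) or 5 (0.0683) and with the epithelial covariate (0.307). A processed transcript, A730017L22Rik, shares 52.7% of the Psmd11 transcript, and reads could be split between them.

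**Figure D1:**
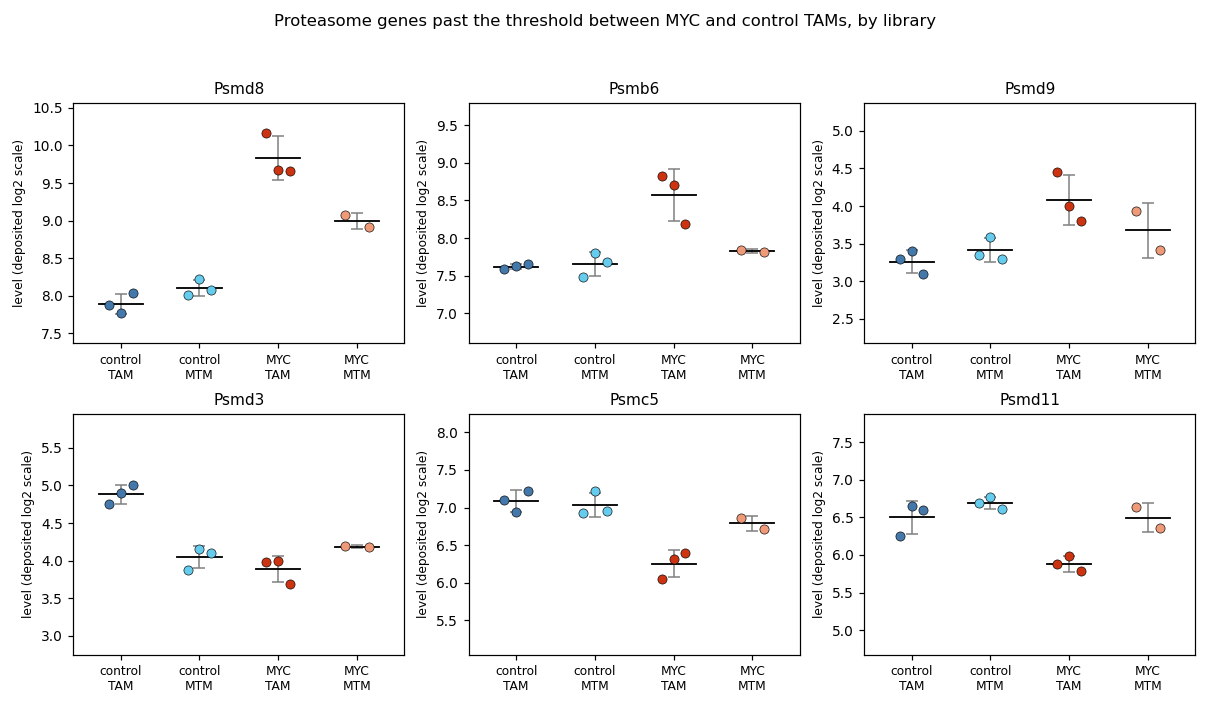
Levels of the 6 proteasome genes past the threshold between MYC and control TAMs, on the deposited log2 scale, in each of the 11 libraries (points), with the group mean (line) and SD (bar). Each panel spans the same range of log2 units. The MYC TAM points of Psmd8, Psmb6 and Psmd9 lie above the control TAM points, and those of Psmd3, Psmc5 and Psmd11 below.

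The sequences upstream of the RefSeq start sites are shown for 4 of these 6 genes, so that members with opposite differences can be compared, and for Psmb5, the counterpart of Psmb8, which did not pass. Psmd3 and Psmc5 are not shown. Promoter windows of RefSeq (GRCm38.p6) matched 38 of 46 members. In 36 of the 41 windows of these members the bases after the start were found in a GENCODE transcript of the gene. The bases from 250 to 1 before the start were searched on both strands for TTCNNNGAA (the GAS site, the interferon-gamma activated sequence), the core of interferon-stimulated response elements (GAAA, a pair of any bases, GAAA), TGACNNNGC (a core of the antioxidant response element, bound by Nfe2l1 and Nfe2l2) and CACGTG (the E-box, bound by MYC among others). Capitals mark every match, and each stretch stops at the base before the start, or earlier where an annotated exon begins. The stretches were chr7:29180702-29180923 for Psmd8 and chr14:54618023-54618245 for Psmb5 (minus strand), and chr11:70525107-70525356 for Psmb6, chr5:123227940-123228189 for Psmd9 and chr11:80428365-80428614 for Psmd11 (plus strand). The Psmd9 window lies inside the longer GENCODE model of that gene, between its exons.
Psmd8: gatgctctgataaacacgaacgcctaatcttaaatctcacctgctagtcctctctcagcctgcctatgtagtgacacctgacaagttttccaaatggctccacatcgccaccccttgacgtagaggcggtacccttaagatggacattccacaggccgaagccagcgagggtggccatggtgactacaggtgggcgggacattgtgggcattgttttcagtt
Psmb6: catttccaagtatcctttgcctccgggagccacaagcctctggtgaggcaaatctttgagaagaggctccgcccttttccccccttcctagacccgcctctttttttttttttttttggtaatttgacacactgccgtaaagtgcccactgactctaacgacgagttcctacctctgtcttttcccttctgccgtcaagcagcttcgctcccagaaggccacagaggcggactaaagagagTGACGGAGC
Psmd9: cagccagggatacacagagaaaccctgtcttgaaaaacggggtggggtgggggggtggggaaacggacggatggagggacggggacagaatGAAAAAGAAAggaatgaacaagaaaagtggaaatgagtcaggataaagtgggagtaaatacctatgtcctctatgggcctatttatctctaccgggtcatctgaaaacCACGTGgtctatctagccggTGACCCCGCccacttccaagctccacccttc
Psmd11: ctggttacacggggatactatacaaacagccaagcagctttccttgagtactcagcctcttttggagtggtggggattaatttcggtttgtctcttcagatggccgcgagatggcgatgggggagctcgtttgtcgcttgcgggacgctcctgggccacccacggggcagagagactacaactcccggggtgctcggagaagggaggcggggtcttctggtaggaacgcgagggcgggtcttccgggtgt
Psmb5: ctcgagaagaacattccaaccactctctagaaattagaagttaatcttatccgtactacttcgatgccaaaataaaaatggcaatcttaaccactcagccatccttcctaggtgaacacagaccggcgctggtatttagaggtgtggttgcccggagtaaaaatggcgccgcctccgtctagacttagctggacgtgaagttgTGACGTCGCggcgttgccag

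Psmd8 and Psmd11, which differed in opposite directions, hold none of the 4 motifs in the printed stretch. Psmb6 and Psmb5, of which the former was higher and the latter nominally lower in MYC TAMs, both hold the antioxidant response element core, at positions -9 to -1 from the start in Psmb6 and -47 to -39 in Psmb5. Psmd9 holds that core together with an E-box and the interferon response core. Over the 38 members, 5 (13.2%) hold the antioxidant core, against 11.52% of 27025 genes with a window. The E-box is in 4 members (against 6.86% of those genes), the interferon response core in 3 (7.9%, against 3.46%) and the GAS site in 2 (5.3%, against 8.13%). Among the immunoproteasome genes, Psmb8 has a GAS match at -97 to -89 and Psmb10 an E-box at -116 to -111. No match of the 4 was found for Psmb9, Psme1 or Psme2, which is also the outcome for a member without a window. A match is a description of letters and not a measured site, and motifs may overlap.

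Immunoproteasome genes did not pass in any of the 5 comparisons by limma. At an unadjusted p under 0.05, Psmb8 alone stood out, in the control cell types and between the MTM groups. Between MYC and control TAMs the median difference of the 5 genes was -0.268, beside -0.211 for the other 41 members and -0.020 for all genes, with 4 of the 5 and 26 of the 41 below 0. Libraries did not overlap between these groups for 3 of the 5, all lower in MYC TAMs. Over the 46 members, 3 were higher and 15 lower without overlap, beside 30.1% of all genes in either direction, 8.03% higher and 22.1% lower. With the epithelial covariate, which was lower in MYC TAMs than in every other library, the medians became 0.053 and 0.156. With each library centred on its median they were -0.061 and -0.005, as the median of all genes moved to 0.187.

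Psmb8, the immunoproteasome subunit with chymotrypsin-like activity, was highest in control MTMs. Its levels were 6.96, 7.48 and 7.58 there and 6.61, 6.73 and 6.66 in control TAMs. In the MYC mice Psmb8 was at 6.401, 6.43 and 6.07 in TAMs and 6.53 and 6.44 in MTMs. The control MTM libraries lay above every other library, and the other 3 groups followed in the order control TAMs, MYC MTMs and MYC TAMs without overlap between them. Control TAMs differed from control MTMs by -0.677 ± 0.178 (limma, adjusted p = 0.0999), and MYC from control MTMs by -0.859 ± 0.199 (adjusted p = 0.116). Neither passed. Both passed with library weights (0.0229 and 0.0116) and without the control MTM library of mouse 1 (0.0346 and 0.0463). An antisense gene, Gm20496, overlaps Psmb8.

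Psmb9, the subunit that replaces Psmb6, was at 5.70, 5.97 and 5.72 in control TAMs and 5.13, 6.20 and 5.48 in control MTMs. Psmb9 was at 5.67, 5.61 and 5.29 in MYC TAMs, while the MYC MTM libraries had 5.43 and 5.68. The 4 group means spanned 5.53 to 5.79, less than the range within control MTMs. Psmb9 overlaps Tap1 on the opposite strand over 15.7% of its transcript. Psmb10, which replaces Psmb7, was the highest and steadiest of the 5: 7.98, 7.98 and 7.93 in control TAMs and 7.59, 8.09 and 7.66 in the control MTM libraries. The values were 7.77, 7.56 and 7.58 in MYC TAMs, while the MYC MTM libraries had 7.72 and 7.72. Over all libraries it spanned 0.526, and the TAM difference was -0.325 ± 0.152 (limma, adjusted p = 0.201).

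The activator genes Psme1 and Psme2 varied most between replicates among the 5. Psme1 was at 5.63, 5.77 and 5.86 in control TAMs and at 4.69, 6.73 and 4.74 in control MTMs. In the MYC mice Psme1 was at 6.52, 5.59 and 6.80 in TAMs and 5.92 and 6.76 in MTMs. The control MTM library of mouse 3 was thus about 2 log2 units above the others of its group. Psme2 was at 6.78, 7.03 and 7.20 in control TAMs and 6.35, 7.96 and 7.20 in the control MTM libraries. The values were 7.00, 6.39 and 7.36 in MYC TAMs, while the MYC MTM libraries had 7.69 and 6.37. The largest differences of these genes, 0.958 ± 0.593 for Psme1 between MTM groups (limma, adjusted p = 0.687) and -0.166 ± 0.449 for Psme2 between control cell types (1), were within this spread. Psme2 shares 82.5% of its transcript with Psme2b, which is not a row of the table.

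Of the constitutive catalytic genes, Psmb6 is described above. Psmb5, the chymotrypsin-like subunit, was at 6.69, 6.85 and 6.82 in control TAMs and 6.51, 5.96 and 5.72 in MYC TAMs. Psmb5 was at 6.58, 7.11 and 6.50 in control MTMs, with 6.69 and 6.67 in MYC MTMs. The MYC TAM libraries were below all control TAM libraries, by -0.721 ± 0.221 on average, and did not pass (limma, adjusted p = 0.0552). It passed under 5 alternatives, which were quantile normalisation (0.0272), genes with a mean of 1 or more (0.0347), a pseudocount of 0.1 (0.0497), without the control MTM library of mouse 3 (0.0359) and without the MYC TAM library of mouse 2 (0.0157, with a difference of -0.944). Of its transcript 88.4% matches the pseudogene Gm3375, which is not in the table. Psmb7, the trypsin-like subunit, was at 6.79, 7.03 and 6.31 in control TAMs and 6.01, 7.19 and 6.13 in the control MTM libraries. The values were 6.88, 5.95 and 5.99 in MYC TAMs, while the MYC MTM libraries had 6.80 and 6.83, and its groups overlapped in all 4 comparisons.

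**Figure D2:**
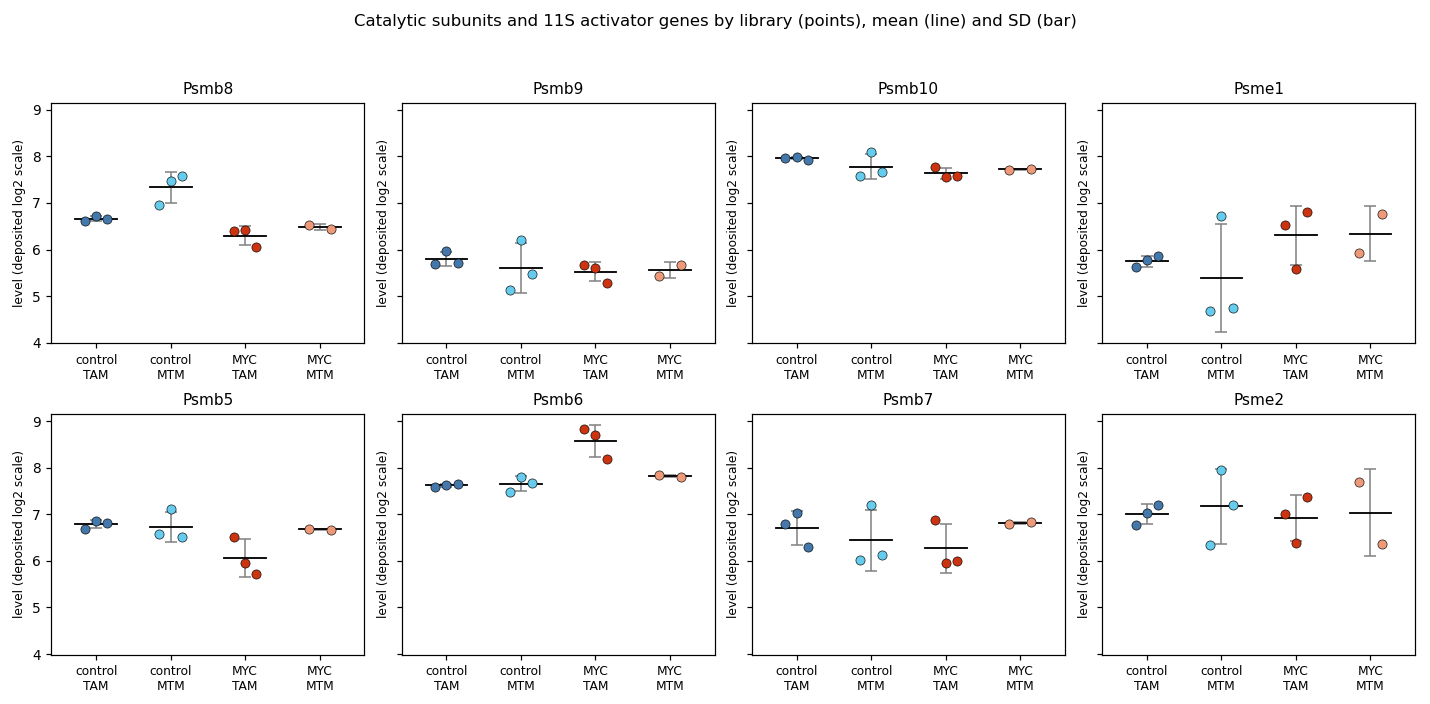
Levels of the immunoproteasome catalytic genes (Psmb8, Psmb9, Psmb10), their constitutive counterparts (Psmb5, Psmb6, Psmb7) and the activator genes (Psme1, Psme2) on the deposited log2 scale, in each library (points), with group mean (line) and SD (bar). Psmb8 is highest in control MTMs, Psmb6 in MYC TAMs, and Psme1 spans 4.69 to 6.73 within control MTMs.

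To compare each immunoproteasome gene with the subunit it replaces, the difference of both levels was taken within each library. Psmb8 minus Psmb5 was 0.39, 0.37 and 1.08 in control MTMs and -0.08, -0.12 and -0.16 in control TAMs. In the MYC mice it was -0.11, 0.47 and 0.34 in TAMs and -0.16 and -0.23 in MTMs. Only in control MTMs was this difference above 0 in every library. Where 0 lies depends on the inferred length scaling, so which gene is the higher is uncertain. Psmb9 minus Psmb6 was -3.16, -3.10 and -2.89 in MYC TAMs, against -1.89, -1.66 and -1.94 in control TAMs. The MTM libraries had -2.35, -1.605 and -2.20 (control) and -2.41 and -2.13 (MYC). MYC TAMs thus had the lowest Psmb9 relative to Psmb6, with a mean of -3.05 ± 0.14 (SD, n = 3) against -1.83 ± 0.15 in control TAMs. Most of this change lies in Psmb6, already called above. From control to MYC TAMs the mean of Psmb6 went from 7.62 to 8.575 and that of Psmb9 from 5.79 to 5.53.

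Psmb10 minus Psmb7 ranged from 0.89 to 1.62 over all libraries and its groups overlapped. By exact two-sided permutation tests of 12 such differences (3 pairs in 4 comparisons), the smallest p was 0.1, which is the smallest that the design allows, and the Benjamini-Hochberg adjusted values ran from 0.3 to 1. The change of -1.22 in Psmb9 minus Psmb6 between the TAM groups had p = 0.1 (exact permutation, adjusted 0.3), with all 3 MYC libraries below all 3 control libraries. In the same comparison Psmb8 minus Psmb5 and Psmb10 minus Psmb7 went the other way, by 0.354 and 0.111.

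**Figure D3:**
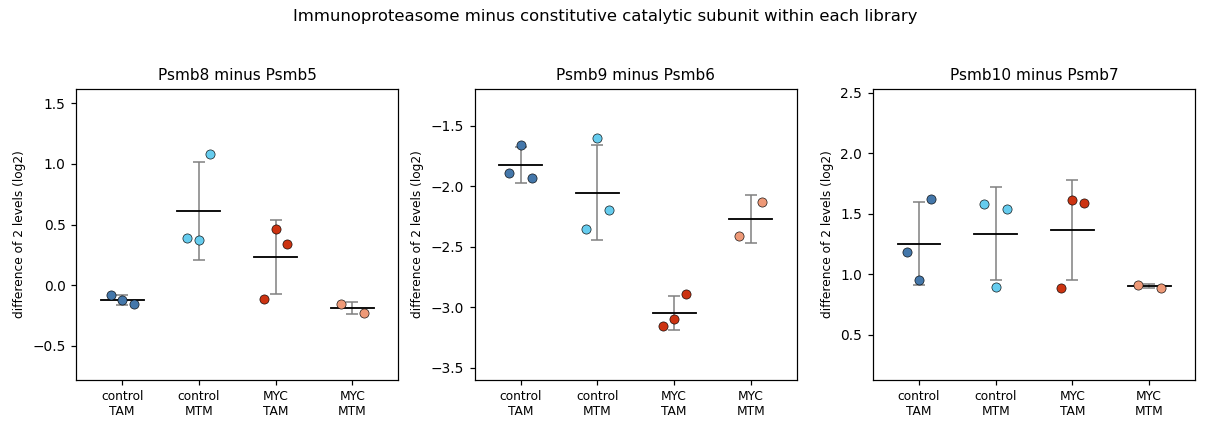
Difference of the log2 levels of an immunoproteasome gene and the constitutive gene it replaces, within each library (points), with group mean (line) and SD (bar). Psmb8 minus Psmb5 is highest in control MTMs, and Psmb9 minus Psmb6 is lowest in MYC TAMs.

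The cell types of control mice were compared to ask how parenchymal and stromal macrophages differ. Of the 46 members 1 passed, 2.17% against 2.37% of all genes (0.744% higher and 1.63% lower), and 8 (17.4%, against 11.8%) had an unadjusted p under 0.05. The member was Psmd3, at 4.88 ± 0.13 in TAMs and 4.04 ± 0.15 in MTMs (SD, n = 3 each), a difference of 0.839 ± 0.141 (limma, adjusted p = 0.0137). That call was lost under 5 of 21 alternatives, which included leaving out any of 4 control libraries (0.0535 to 0.0635). Median differences were 0.184 for the immunoproteasome genes, -0.041 for the other members and -0.004 for all genes. Their signs rest on single libraries: they were -0.045 and -0.157 without the control MTM library of mouse 1 and 0.338 and 0.079 without that of mouse 3. Psmg3, an assembly chaperone of the core, had the largest difference, at 2.43, 2.76 and 2.46 in TAMs and 1.09, 1.47 and 1.19 in MTMs, which did not pass (1.30 ± 0.31, limma adjusted p = 0.0659). Groups did not overlap for 6 members that were higher and 5 that were lower, 23.9% against 18.9% of all genes (6.9% higher and 12% lower).

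In the MYC mice the same cell types gave 2 members, 4.35% against 4.49% of all genes (0.664% higher and 3.82% lower). Psmd8 was 0.841 ± 0.192 higher in TAMs (limma, adjusted p = 0.0403), and Psmc1, an ATPase of the base, was lower by 0.754 ± 0.165 (0.0339). Psmc1 was at 7.79, 7.64 and 7.55 in MYC TAMs, while the MYC MTM libraries had 8.63 and 8.20. In the controls Psmc1 was at 7.62, 7.75 and 7.84 in TAMs and 8.16, 8.24 and 8.16 in MTMs, where the groups did not overlap either (-0.458 ± 0.147, adjusted p = 0.191). Both MYC calls were fragile. Psmc1 was lost under 14 of 21 alternatives and Psmd8 under 12 of 21, including a fixed block for the mouse (0.0846 and 0.0674) and the omission of the MYC TAM library of mouse 4 (0.0611 and 0.0501) or of either MYC MTM library. Of the Psmc1 transcript 82.0% matches a processed pseudogene.

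Median differences in that comparison were -0.081, -0.083 and -0.012 for immunoproteasome genes, other members and all genes. After quantile normalisation they were 0.063 for the immunoproteasome genes and 0.094 for the other members, and with centred libraries 0.086 and 0.084, so both signs rest on the scaling. Groups did not overlap for 17 members, 5 higher and 12 lower, which is 37% against 30.4% of all genes (6.82% higher and 23.5% lower).

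Between the MTM groups no member passed by limma, against 0.618% of all genes (0.338% higher and 0.28% lower), and 4 (8.70%, against 10.1%) had an unadjusted p under 0.05. The nearest were Psmd8, 0.891 ± 0.192 higher in MYC MTMs (adjusted p = 0.0933), and Psmb8. Median differences were -0.060 for the immunoproteasome genes, -0.043 for the other members and -0.021 for all genes. Without the control MTM library of mouse 3 the first 2 were 0.25 and 0.088. Their lowest values were -0.285, with the library of mouse 1 of that group left out, and -0.153, with that of mouse 5 left out. Psma4, an alpha ring gene, was at 4.53, 6.07 and 5.57 in control MTMs, with 4.24 and 4.33 in MYC MTMs, the widest difference of a member here, -1.11 ± 0.37 (limma, adjusted p = 0.309). Other genes, which are not in the table, match 76.7% of its transcript. Libraries did not overlap for 13 members, 4 higher and 9 lower, which is 28.3% against 31.2% of all genes (11.1% higher and 20.1% lower).

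Whether TAMs and MTMs differed by unlike amounts in MYC and control mice was tested as an interaction term, and 1 member passed, 2.17% against 1.24% of all genes (0.24% higher and 0.996% lower). For Psmd3 the TAM minus MTM difference was 0.839 in controls and -0.299 in MYC mice, which gave -1.14 ± 0.21 (limma, adjusted p = 0.0388). That call was lost under 11 of 20 alternatives, among them the fixed block for the mouse (0.105) and the omission of any library except that of MYC TAM mouse 4 or 6 or control MTM mouse 3. For Psmd8 the same term was 1.05 ± 0.26 (adjusted p = 0.105) and for Psmb6 0.781 ± 0.267 (0.267), so differing responses of TAMs and MTMs were not established for them. Across the 46 members, the MYC minus control differences of TAMs and of MTMs had the same sign in 29 (Spearman rho 0.174 across 46 genes, which share libraries and mice and are not replicates). The shared sign was not counted over all genes, of which 52.8% (TAMs) and 58.8% (MTMs) were below 0, so 29 is no result about the members.

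**Figure D4:**
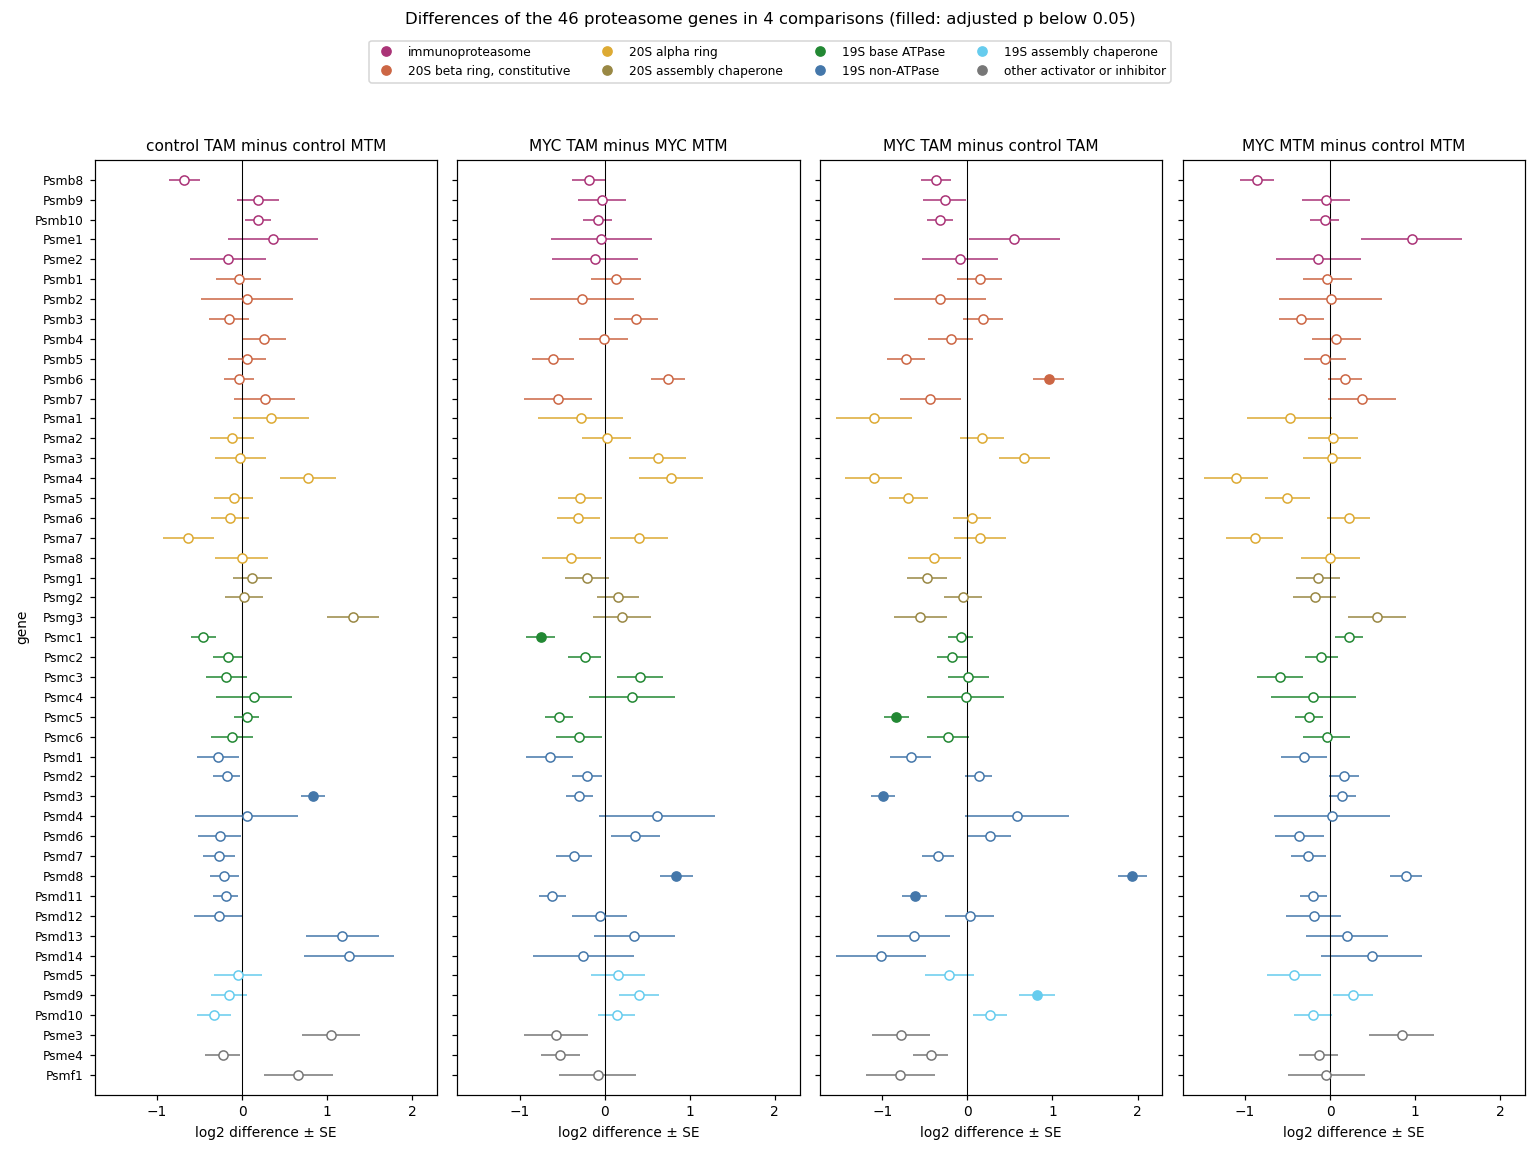
Log2 difference (point) and SE (bar) of each of the 46 genes in 4 comparisons, ordered and coloured by role. Filled points passed the adjusted threshold, 1, 2, 6 and 0 from left to right. The filled points are single genes of several roles.

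By role, the calls between MYC and control TAMs were spread as follows, beside 15.9% of all genes called. Of 7 constitutive beta ring genes 1 passed (Psmb6, higher), with a median difference of -0.197. None of 8 alpha ring genes passed by limma, although 3 had an unadjusted p under 0.05, and Psma4 (-1.10 ± 0.33) and Psma5 (-0.694 ± 0.232) came closest at adjusted p = 0.0526 and 0.0748. Of the Psma4 transcript 76.7%, and of the Psma5 transcript 76.5%, matches other genes, which are not in the table. In the base, 1 of 6 ATPase genes passed (Psmc5), with a median of -0.127. In the non-ATPase part 3 of 11 passed (Psmd8 higher, Psmd3 and Psmd11 lower), with a median of -0.345. Psmd14, the enzyme that removes ubiquitin chains, was at 6.61, 6.73 and 6.84 in control TAMs and 5.34, 5.78 and 5.99 in MYC TAMs without overlap, and did not pass (-1.02 ± 0.53, limma adjusted p = 0.255).

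Assembly chaperones of the core (Psmg1, Psmg2, Psmg3) gave 0 of 3 by limma, also at an unadjusted p under 0.05, with a median of -0.474, and those of the base gave 1 of 3 (Psmd9). The alternative activators Psme3 (PA28 gamma, nuclear) and Psme4 (PA200) and the inhibitor Psmf1 differed by -0.777 ± 0.340, -0.428 ± 0.205 and -0.788 ± 0.404 between the TAM groups, with limma adjusted p of 0.17, 0.214 and 0.247. Psme3 was at 5.37, 4.73 and 4.80 in control TAMs and 3.78, 3.63 and 4.35 in control MTMs, higher without overlap but not past the threshold (1.05 ± 0.34, adjusted p = 0.195).

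The spread within groups was described over genes with a mean level of 4 or more. Of 40 members with a mean level of 4 or more, the median residual SD was 0.32, against 0.275 in 2931 other genes, and 8 (20%, against 13.7%) exceeded 0.5. These were Psmd4, Psmb2, Psme1, Psmd14, Psma1, Psmc4, Psme2 and Psmd13, from 0.858 to 0.596. Psmd4, a ubiquitin receptor, was at 5.21, 5.29 and 3.29 in control MTMs and 6.00, 5.61 and 4.10 in MYC TAMs. The control MTM library of mouse 3 was the highest of its group in 33 of the 40 members (82.5%, against 54.0% of the other genes). Among control TAMs the library of mouse 1 was the highest in 2 members (5.0%, against 22.6%) and the lowest in 27 (67.5%, against 50.1%). These libraries carry each member's group mean, and RNA integrity numbers, 3.3 to 9.6 over the series, are not given by library in the labels.

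The genes that work with the proteasome were read from 4 lists. Of 25 partner genes 21 were measured, and 1 passed between MYC and control TAMs (4.76%, against 15.9% of all genes), with a median of -0.199 against -0.020 over all genes. That gene was Vcp, the ATPase that extracts ubiquitinated proteins from membranes and complexes. Vcp was at 7.62, 7.72 and 7.96 among control TAMs and 6.63, 6.59 and 7.17 in the MYC TAM libraries. In MTMs it was at 7.83, 7.97 and 7.76 (control) and 7.69 and 7.68 (MYC). MYC TAMs were below all other libraries, by -0.968 ± 0.177 against control TAMs (limma, adjusted p = 0.00579) and -0.889 ± 0.197 against MYC MTMs (0.0359, lost under 12 of 21 alternatives). Pomp, the chaperone that completes the core, differed by -0.563 ± 0.195 between the TAM groups (limma, adjusted p = 0.0848), without overlap. Adrm1, a ubiquitin receptor, gave -0.132 ± 0.171 (0.625). The transcription factors of the proteasome genes, Nfe2l1 and Nfe2l2, gave -0.199 ± 0.185 and -0.609 ± 0.289 (0.498 and 0.209).

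Of 12 genes for ubiquitin and its transfer 1 passed between the TAM groups (8.33%, against 15.9% of all genes), Ube2n, a conjugating enzyme that builds signalling chains, which was lower in MYC TAMs by 0.802 ± 0.146 (limma, adjusted p = 0.00583, and 0.203 with the epithelial covariate). In the MHC class I list 4 of 16 passed (25%, against 15.9% of all genes), 1 higher and 3 lower, with a median of -0.462 against -0.020. Tpp2, a cytosolic peptidase, was lower by 1.22 ± 0.14, Lap3, an aminopeptidase, by 1.98 ± 0.24, and Pdia3, part of the peptide loading complex, by 1.29 ± 0.20 (adjusted p = 0.00047, 0.000691 and 0.0025). H2-D1, a class I heavy chain, was higher by 0.779 ± 0.182 (0.0182, lost under 5 of 20 alternatives), and as class I genes are near-identical its reads may be shared with them. The peptide transporter genes did not pass, at -0.642 ± 0.200 for Tap1 (0.0588) and -0.283 ± 0.276 for Tap2 (0.519), nor did B2m, at -0.021 ± 0.351 (0.977).

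Genes of the interferon-gamma axis gave 6 of 17 measured, all lower in MYC TAMs (35.3%, against 12% of all genes called lower), with a median of -0.555 against -0.020; the 4 with the smallest adjusted p were Ciita, Cxcl10, Irf8 and Gbp3. Ciita, the master factor of MHC class II, was at 4.35, 4.62 and 4.31 in control TAMs and 1.10, 1.84 and 1.10 in MYC TAMs (-3.08 ± 0.36, limma adjusted p = 0.000543). Cxcl10 differed by -2.86 ± 0.40 (0.00139), Gbp3 by -1.40 ± 0.24 (0.00418) and Irf8, a macrophage transcription factor, by -0.857 ± 0.121 (0.00147). Irf8 was also 1.06 ± 0.12 higher in control TAMs than in control MTMs (limma, adjusted p = 0.00168). Irf1 and Nlrc5, transcriptional regulators known to act in this pathway, did not pass, at -0.164 ± 0.633 (0.881) and -0.878 ± 0.302 (0.0832). Ifng itself has no row in the table. The T and NK cell genes were lower in the same libraries, with the sums given above, and their part in this list was not tested.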

How the data were processed

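Poly-A RNA from 500 ng total RNA was sequenced after a stranded library kit and 8 PCR cycles, per the labels' protocols. The authors deposited 1 table of log2 expression for 17475 genes in 11 libraries; its formula and the counting are not given in the sources used here. HISAT2, DESeq2, mm10 and GRCm38.p5 are named in the submitters' processing notes, without a role. From the values, the scale behaved as the log2 of x plus 1, with x scaled for depth and gene length, which gave about 32300000 to 42800000 reads in genes.

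Differences were tested two-sided with limma 3.58.1 in R 4.3.3: 4 group means over the 11 libraries, variances with a trend, Benjamini-Hochberg over 17475 genes, threshold 0.05. Errors are SE for differences and SD for group means. The limma p-values measure the spread between libraries within groups, and the TAM and MTM libraries of a mouse were treated as independent. The 21 alternatives include 11 that leave out a library. Positions and copies (BLAST 2.17.0, identity 95% over 100 bases) came from GENCODE M21 (GRCm38), and promoters from RefSeq. Python 3.11.15 was used for the rest.

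Members, lists and the naming rule were chosen with earlier results of these data known. The rule takes the members, up to 4 passing genes of each list and comparison with the smallest adjusted p, and Pomp, Adrm1, Nfe2l1, Nfe2l2, Tap1, Tap2, B2m, Irf1, Nlrc5 and Ifng. Genes of the other cell types and of proliferation are mostly given as counts, and some genes of the rule are not reported here. Of 156 list genes 148 were measured, 4 by an older symbol.

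The labels pair TAMs and MTMs by mouse. Deviations of a mouse's libraries correlated at 0.176, 0.211 and 0.078 in controls and 0.098 and 0.038 in MYC mice. Replicates were not copies: over 1729 genes, 0% of values were identical.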

Additional observations from a re-analysis of the deposited data

Results flagged for a closer look

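The difference between TAMs and MTMs differed between MYC and control mice by the interaction term of limma (adjusted p under 0.05) for 1 proteasome gene and 10 genes of the lists, of which the naming rule takes 9. For Psmd3 the term was -1.139. It was -1.17 for Tpp2 and -1.171 for Irf8. Of the proliferation genes, Plk1 gave -2.443, Rrm2 -2.462, Mcm2 -1.977 and Mcm3 -1.305. The neutrophil gene Mmp8 gave 2.38, and the epithelial genes Cdh1 and Spint1 gave -2.582 and -2.343. Negative values mean that TAMs stood lower relative to MTMs in MYC mice than in controls. Of all genes tested 1.24% passed this term. Every one of these terms was lost under some of 20 alternatives: Cdh1 under 13, Tpp2 12, Psmd3 11, Mcm3 10, Irf8 and Plk1 8 each, Mcm2 7, Rrm2 5, Spint1 4 and Mmp8 3.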

How the results depend on the processing

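Groups held 2 or 3 mice. Gene copies, scaling, the sort genes of MYC TAMs and RNA integrity, which is not given by library, also limit the values. The epithelial covariate was lowest in the MYC TAM libraries, so results fitted with it cannot separate it from that group. The calls of Psmd8, Psmb6 and Psmc5 between the TAM groups held under all 20 alternatives run. Over the 5 comparisons 63 of 102 recomputed counts were within 1.5 times the reported count. Of 204 recomputed medians 192 moved by less than the SD between replicates, which includes turns of sign in medians near 0. Many of these medians could not move, so this number is no measure of stability. Dropping the variance trend, fitting only the groups compared or leaving out a library of a group not compared keeps the difference of group means. The cause of the other changes was not tested. Ccr7, a dendritic cell gene, turned from lower to 0.009 between the TAM groups with each library centred on its median.

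In the control cell types the count of 1 became 2 with centred libraries or with genes at a mean of 1 or more, 0 with only the groups compared in the fit, and 3 with library weights, and ran from 0 to 2 without 1 library. In the MYC cell types the count of 2 became 1 with a fixed replicate block or library weights, 4 without the variance trend, and 0 with centred libraries or only the groups compared, and ran from 0 to 3 without 1 library. There the medians of immunoproteasome genes and other members became 0.063 and 0.094 (quantile), 0.086 and 0.084 (centred) and 0.077 and 0.126 (epithelial covariate), and that of the other members ran from -0.211 to -0.032 without 1 library. Between the TAM groups the medians became -0.061 and -0.005 (centred) and 0.053 and 0.156 (epithelial covariate) for immunoproteasome genes and other members; the latter ran from -0.385 to -0.138 without 1 library, and the count from 4 to 9. Between the MTM groups the count became 2 with library weights and ran from 0 to 2 without 1 library. The interaction count became 0 with the fixed block, centred libraries or the epithelial covariate, and 2 with weights, and ran from 0 to 2 without 1 library; its medians of -0.220 and -0.168 became 0.168 and 0.155 with that covariate. Between the MTM groups the medians became 0.056 and 0.074 with centred libraries. A random block for the mouse gave 1, 3, 7, 0 and 1 calls in the 5 comparisons; the fixed block cannot be fitted to genotype differences, as each mouse has 1 genotype.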
